A study of Caenorhabditis elegans with 11 samples.

Results

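The autophagy genes described here are 31 genes of Caenorhabditis elegans, matched by name to a list of 32 names and sorted by the step of autophagy in which their products act. The names atg-11 and epg-7 belong to the same gene, which is why 32 names gave 31 genes. They stand among 47084 genes listed for each library, and among 14361 genes that passed a filter on low counts. All 31 passed that filter, so none was lost to low counts, and their raw counts ran from 45 to 10036 per library. By step, 4 genes act in initiation, 10 in membrane supply and nucleation, 11 in conjugation, and 4 in cargo capture and late steps, and 2 are regulators.

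The RNA came from whole worms on day 1 of adulthood, about 1000 per library, grown at 20 °C on the E. coli strain OP50. The 2KR group (3 libraries) carried the mu86 allele of daf-16 and the integrated transgene iqIs85, which encodes a GFP fusion of DAF-16, the FOXO factor of insulin signalling, with arginines in place of the lysines in the substitution labelled K248 + 253R. The WT group (3 libraries) carried the same mu86 allele and the transgene iqIs79, which encodes the GFP fusion of unaltered DAF-16. N2, the wild-type laboratory strain, gave 2 libraries and carried neither the mu86 allele nor a transgene. Both transgenes were driven by the daf-16 promoter and came with pRF4, a plasmid of the rol-6 marker that makes worms roll. Each transgene was represented by 1 line, so the substitutions cannot be told apart from any other difference between the 2KR and WT lines. Against N2 the lines differed also in the mu86 allele, the GFP tag, the transgene and the marker, which cannot be told apart either. A further line with 4 substitutions was not analysed here, because gene by gene its counts bore little relation to those of every other library.

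Autophagy encloses part of the cytoplasm in a double membrane, the autophagosome, and delivers it to lysosomes for degradation. A kinase complex around UNC-51 starts the process, a lipid kinase complex around VPS-34 marks the growing membrane, and a pair of ubiquitin-like conjugation systems attaches LGG-1 and LGG-2 to it. Cargo such as protein aggregates is brought in by receptors, of which SQST-1 is an example. In C. elegans autophagy genes are known to be needed for the long life of insulin receptor mutants, and the transcription factor HLH-30 is known to drive many genes of autophagy and lysosomes.

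Total counts ran from 21947014 to 30810301 over the 8 libraries. The daf-16 transcript was at 214, 289 and 234 CPM (gene counts relative to the library total, scaled between libraries by the TMM method) in 2KR, 400, 452 and 400 CPM in WT, and 160 and 145 CPM in N2. The 2KR and WT lines therefore differed in the amount of daf-16 RNA as well as in its sequence, with a log2 fold change of -0.77 ± 0.10 (SE) for 2KR over WT. The marker gene rol-6 had 3745 to 4469 counts in the 2KR libraries, 1569 to 1951 in the WT libraries, and 2 and 3 in the N2 libraries.

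Per length of transcript, the autophagy genes spanned a wide range of levels, far wider than the spread of a gene between libraries. Levels between genes are given as RPKM, TMM-scaled CPM divided by the length of the annotated exons in kilobases, as means over the 8 libraries. The highest was lgg-1, a homolog of mammalian GABARAP whose product is the standard marker of autophagosomes, at 464 RPKM with a range of 414 to 498 RPKM. Next came rab-7, the small GTPase of late endosomes and lysosomes, at 151 RPKM, atg-18, a phosphoinositide-binding protein, at 106 RPKM, and lgg-2, a homolog of mammalian LC3, at 95.7 RPKM. The lowest were atg-2, a lipid transfer protein, at 5.24 RPKM, atg-10, the conjugating enzyme of LGG-3, at 4.81 RPKM, and epg-5, a tether between autophagosomes and late endosomes or lysosomes, at 3.50 RPKM. The highest mean was 133 times the lowest, and the median over the 31 genes was 22.2 RPKM. Neighbours in this order were often not separated, since the 8-library ranges of 21 of the 30 neighbouring pairs overlapped, and those of the other 9 did not.

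**Figure D1:**
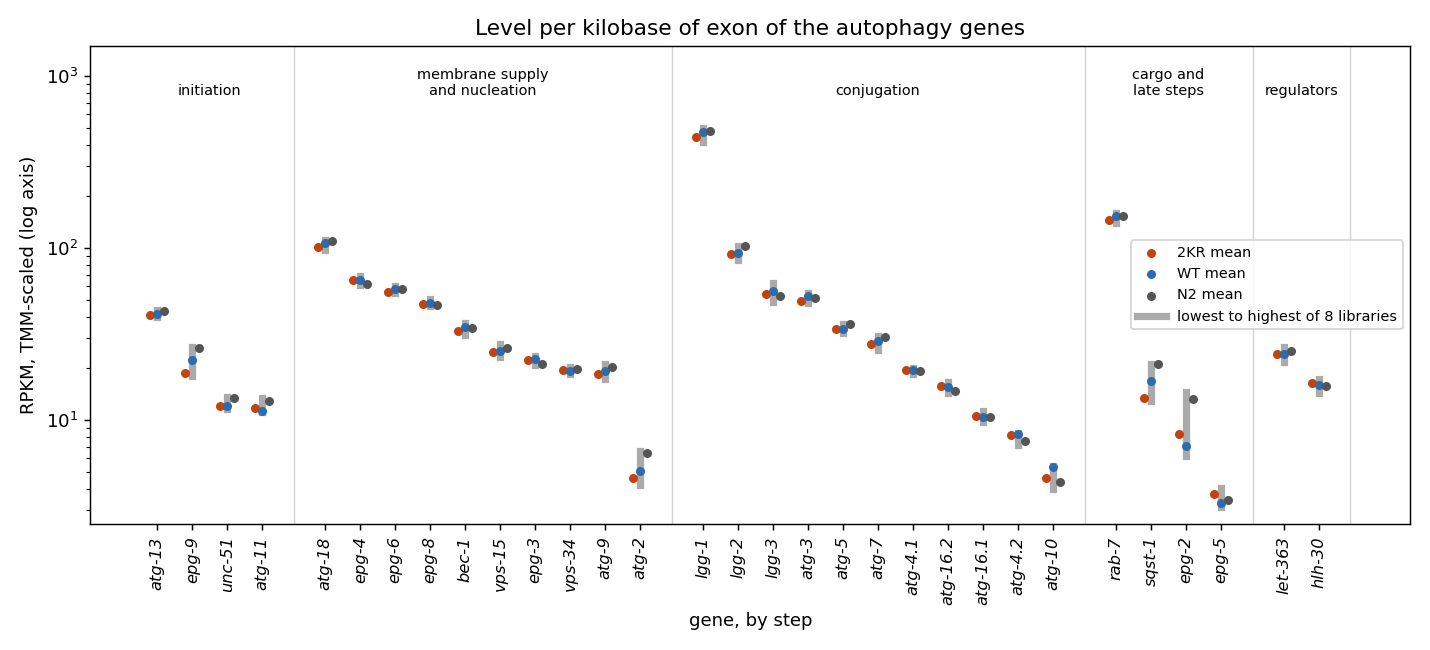
Level per length of each of the 31 autophagy genes, in RPKM on a log axis, by step. Points are the means of the 2KR, WT and N2 groups, and bars run from the lowest to the highest of the 8 libraries. The bars are short beside the range of gene means, between 3.50 RPKM (epg-5) and 464 RPKM (lgg-1).

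No step stood at a single level. The initiation genes had a median of 17.2 RPKM and a range of means between 11.9 and 41.7 RPKM. The median was 29.7 RPKM for membrane supply and nucleation, 28.8 RPKM for conjugation, 12.8 RPKM for cargo and late steps, and 20.3 RPKM for the 2 regulators. Within the cargo and late step, rab-7 at 151 RPKM and epg-5 at 3.50 RPKM were the extremes.

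Genes with a close relative kept a similar proportion in all groups. The ratio of lgg-1 to lgg-2, on the RPKM scale, averaged 4.82 ± 0.753 in 2KR, 5.06 ± 0.354 in WT (SD, n = 3 each) and 4.70 ± 0.0993 in N2 (SD, n = 2). Of the proteases that process LGG proteins, atg-4.1 exceeded atg-4.2 by a ratio of 2.36 ± 0.121 in 2KR, 2.35 ± 0.0445 in WT and 2.57 ± 0.326 in N2. Of the scaffold proteins of the conjugation complex, atg-16.2 exceeded atg-16.1 by 1.498 ± 0.0226 in 2KR, 1.503 ± 0.0473 in WT and 1.43 ± 0.0684 in N2. In all 8 libraries lgg-1, atg-4.1 and atg-16.2 were the higher of their pair, and for each of these ratios the ranges of the 3 groups overlapped. How reads that match both relatives were counted by the authors is not stated in the labels or files.

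The autophagy genes also varied little between libraries on the CPM scale. For 28 of the 31 genes the highest of the 8 libraries was under 1.5 times the lowest. The exceptions were epg-2 at 2.36 times, sqst-1 at 1.65 times and atg-2 at 1.59 times. The SD of log2 CPM within groups had a median of 0.0806 over the 31 genes, against 0.151 over all genes tested, which include genes of far lower counts, and was highest for epg-9 (0.174), epg-2 (0.170) and atg-2 (0.165). Replicate 3 of 2KR was the lowest library for 11 of the 31 genes and the highest for 0 of them (8 and 0 when counts were scaled by library totals alone). The same counts over all genes are not given here, so these do not set the autophagy genes apart from other genes.

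Between 2KR and WT, the comparison that addresses the loss of the 2 lysines, 0 of the 31 genes passed the test in either direction. The test was the edgeR quasi-likelihood test without pairing of libraries, with Benjamini-Hochberg adjustment over all 14361 genes. A gene is called here at an adjusted p under 0.05. The share called over all genes was 0.244%, which is 35 genes, with 0.0766% higher and 0.167% lower. In a fit with a block for the replicate number, which compares libraries of the same number, 1 of the 31 genes was lower in 2KR and passed (sqst-1), while 1.54% of all genes passed, and 0.627% were lower. DESeq2 also called sqst-1 and no other of the 31. At an unadjusted p under 0.05, 2 genes passed (epg-9 and sqst-1), beside 6.58% of all genes. The log2 fold changes, 2KR over WT, were positive for 8 genes and negative for 23, with a median of -0.02, against a median of -0.00 over all genes tested.

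The sizes that remain possible between 2KR and WT were small for most of the autophagy genes. In the fit without a replicate block, the 95% interval of the log2 fold change lay within 0.5 either way for 29 of the 31 genes. The others were epg-9 and atg-10. Over all genes tested it did so for 8316 of 14361. The 3 libraries of 2KR lay below all 3 of WT for 3 genes (atg-18, atg-10 and sqst-1), beside 5.11% of all genes, and above them for 1 gene (epg-5), beside 5.12% of all genes. Medians by step, 2KR over WT, were -0.00 for initiation, -0.04 for membrane supply and nucleation, -0.02 for conjugation, 0.04 for cargo and late steps and 0.02 for the regulators.

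Between WT and N2, 2 of the 31 genes fell and 0 rose, namely sqst-1 and epg-2, both of the cargo and late step. The share called over all genes was 4.07%, with 1.86% higher and 2.21% lower. The log2 fold changes, WT over N2, were positive for 12 genes and negative for 19, with a median of -0.03 (all genes tested, 0.01). When counts were scaled by library totals alone, 16 were positive and 15 negative, the median was 0.00, and the call of sqst-1 was lost. At an unadjusted p under 0.05, 4 genes passed, beside 19.1% of all genes. All 3 WT libraries lay below both of N2 for 8 genes, beside 19.2% of all genes, and above them for 4, beside 20.4% of all genes.

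Between 2KR and N2, 4 of the 31 genes fell and 0 rose, namely sqst-1, epg-2, atg-2 and epg-9. The share called over all genes was 7.76%, with 3.76% higher and 4.0% lower. The log2 fold changes, 2KR over N2, were positive for 11 genes and negative for 20, with a median of -0.07 (all genes tested, 0.01). At an unadjusted p under 0.05, 5 genes passed, beside 25.0% of all genes. All 3 libraries of 2KR lay below both of N2 for 11 genes, beside 21.9% of all genes, and above them for 2, beside 21.8% of all genes. The comparisons of the lines with N2 share the same 2 N2 libraries, so their values are given side by side and are not independent of each other.

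**Figure D2:**
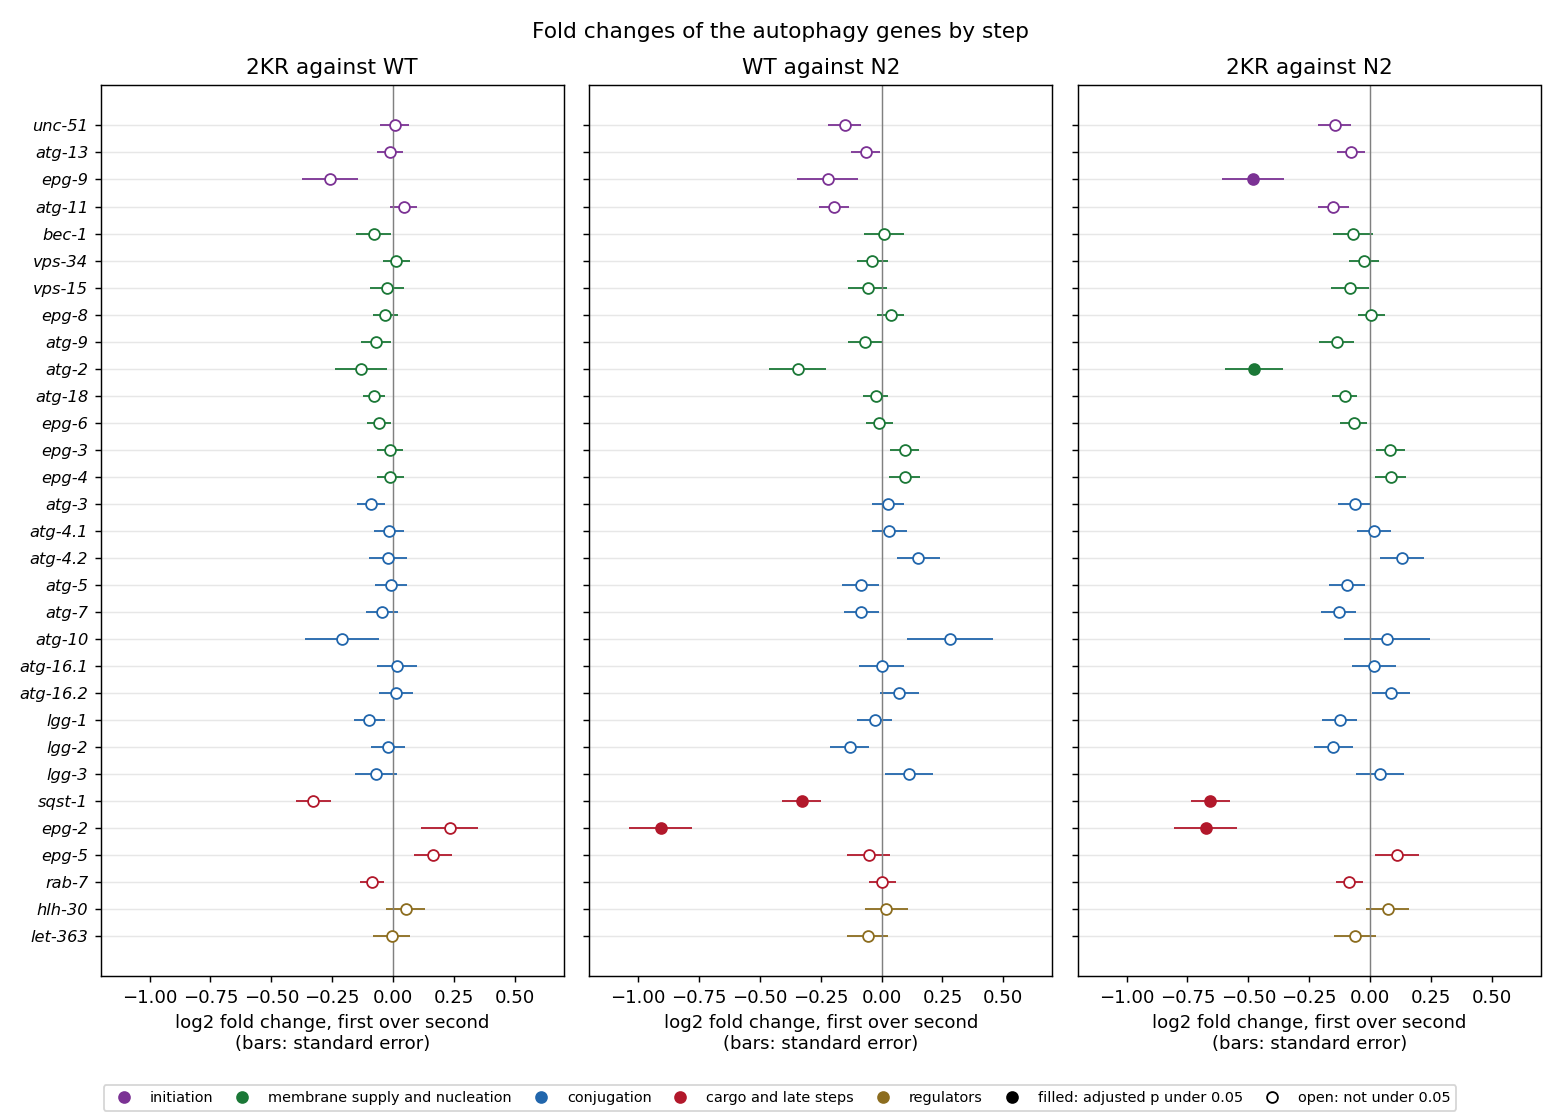
Log2 fold change with its standard error for each of the 31 autophagy genes, by step, for 2KR over WT, WT over N2 and 2KR over N2, with filled points for genes at an adjusted p under 0.05. No point is filled in 2KR against WT, sqst-1 and epg-2 are filled in both comparisons with N2, and atg-2 and epg-9 in 2KR against N2.

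**Figure D3:**
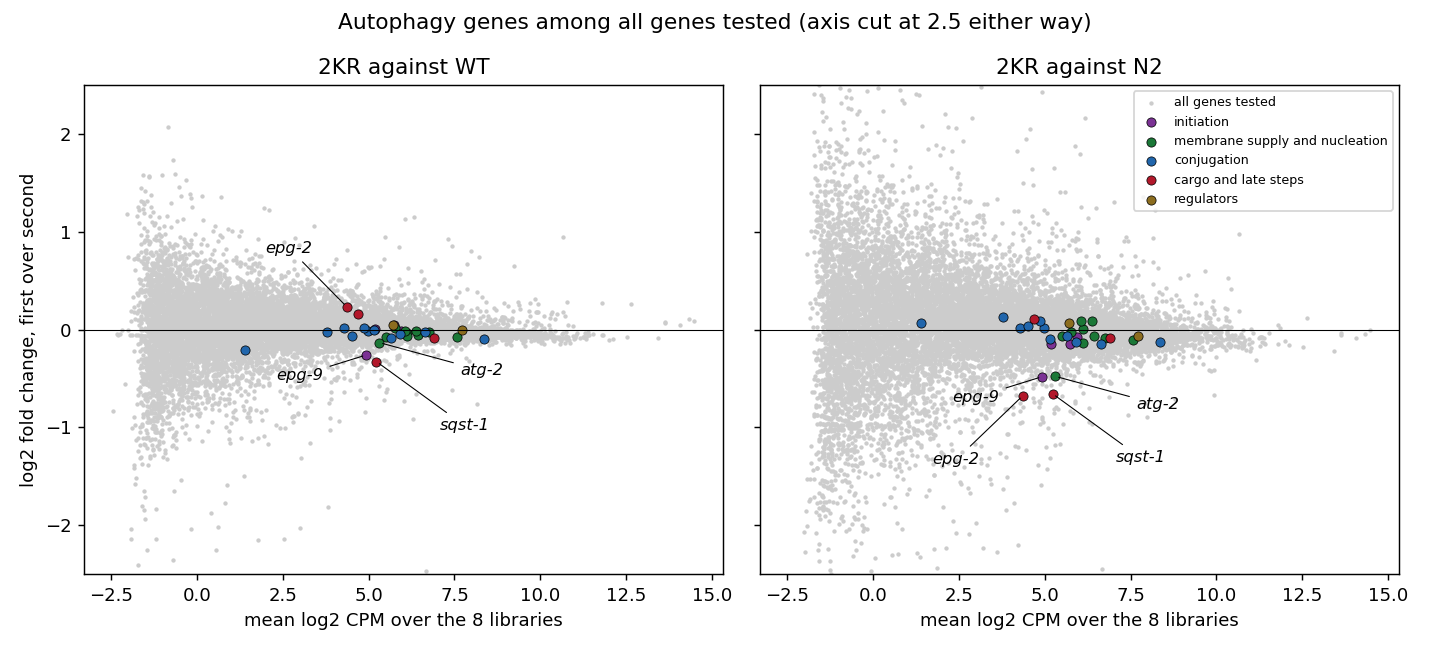
Log2 fold change against mean log2 CPM over the 8 libraries for all 14361 genes tested (grey) and the 31 autophagy genes (coloured by step), for 2KR over WT on the left and 2KR over N2 on the right. Most autophagy genes lie near 0, and sqst-1, epg-2, atg-2 and epg-9 lie lowest among them in 2KR against N2.

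The initiation genes were all on the negative side in both comparisons with N2, and 1 of them passed a test. Their median log2 fold change was -0.17 for WT over N2 and -0.15 for 2KR over N2, with 4 of 4 negative in each, also when counts were scaled by library totals alone. The gene that passed was epg-9, the worm counterpart of mammalian ATG101 and a partner of ATG-13 (WBGene00022078, chromosome IV 2601141 to 2607464 of WBcel235). It was at 27.8, 25.1 and 24.9 CPM in 2KR, 34.7, 25.04 and 33.5 CPM in WT, and 37.0 and 35.5 CPM in N2. The 2KR libraries lay below both N2 libraries, whereas WT replicate 2 lay with the 2KR libraries and the other WT libraries lay close to N2. The log2 fold change was -0.48 ± 0.13 (SE) for 2KR over N2, with an adjusted p of 0.046 in the edgeR test. This call rested on every library: it was lost without any 1 of the 5, at adjusted p of 0.06 to 0.277, and also with a stricter filter on low counts, at 0.0527. For 2KR over WT it was -0.26 ± 0.11 (adjusted p = 0.734) and for WT over N2 -0.22 ± 0.13 (adjusted p = 0.381). Without replicate 2 of WT these became -0.39 (adjusted p = 0.0567) for 2KR over WT and -0.09 (adjusted p = 0.687) for WT over N2. Leaving that library out also raised the calls over all genes in 2KR against WT from 35 to 124. Without replicate 1 or 3 of WT, epg-9 moved the other way, to -0.17 and -0.20 for 2KR over WT. It was called in 2KR against WT in 0 of the 6 fits with a library left out.

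Of the other initiation genes, unc-51, the kinase that starts autophagy, had a log2 fold change of -0.15 ± 0.07 for 2KR over N2 and -0.15 ± 0.07 for WT over N2. The scaffold gene atg-11, also named epg-7, had -0.15 ± 0.06 for 2KR over N2 and -0.19 ± 0.06 for WT over N2. The gene atg-13, for a subunit of the same kinase complex, had -0.08 ± 0.06 for 2KR over N2 and -0.07 ± 0.06 for WT over N2. None of these 3 passed in either comparison with N2, with adjusted p between 0.123 and 0.597 in the edgeR test.

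Among the 10 genes of membrane supply and nucleation, 1 fell in 2KR against N2, and 0 passed in the other comparisons in the edgeR test without a replicate block. It was atg-2, whose product carries lipid to the growing membrane (WBGene00019748, chromosome X 6806763 to 6817266). It was at 37.7, 32.7 and 34.3 CPM in 2KR, 42.9, 31.5 and 40.3 CPM in WT, and 50.1 and 47.1 CPM in N2. Both N2 libraries were above all 6 libraries of the lines, while 2KR and WT overlapped, with the lowest value in WT replicate 2. The log2 fold change was -0.48 ± 0.12 for 2KR over N2 (adjusted p = 0.038), and the call held without replicate 1 of 2KR (adjusted p = 0.0491) and was lost without any other library, at up to 0.272. It was -0.35 ± 0.12 for WT over N2 (adjusted p = 0.145) and -0.13 ± 0.11 for 2KR over WT (adjusted p = 0.923). The value for 2KR over WT became -0.25 (adjusted p = 0.253) without replicate 2 of WT. Without replicate 1 of WT it became -0.04, and without replicate 3 of WT -0.09. In 2KR against WT atg-2 was called in 0 of the 6 fits with a library left out.

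The other 9 genes of this step had log2 fold changes between -0.08 and 0.01 for 2KR over WT. They include bec-1, vps-34 and vps-15 of the lipid kinase complex, epg-8, its worm ATG14 counterpart, the membrane protein gene atg-9, atg-18 and its relative epg-6, and the endoplasmic reticulum genes epg-3 and epg-4. Of these, atg-18 was at 191, 184 and 177 CPM in 2KR, 196, 194 and 194 CPM in WT, and 200 and 195 CPM in N2. All 2KR libraries were below all others for atg-18, by a margin much smaller than for sqst-1, and the log2 fold change was -0.08 ± 0.05 for 2KR over WT (adjusted p = 0.851, 95% interval -0.18 to 0.02). The genes epg-3 and epg-4 were the 2 of the 10 of this step whose WT libraries all lay above N2, beside 20.4% of all genes. Their log2 fold changes in WT over N2 were 0.10 ± 0.06 for epg-3 and 0.09 ± 0.06 for epg-4, with neither called.

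Of the 11 conjugation genes, 0 were called in any of the 3 comparisons by edgeR without a replicate block or by DESeq2, and 0 had an unadjusted p under 0.05. Their median log2 fold changes were -0.02 for 2KR over WT, 0.03 for WT over N2 and 0.02 for 2KR over N2. The most abundant, lgg-1 (WBGene00002980), was at 293, 305 and 342 CPM in 2KR, 329, 325 and 352 CPM in WT, and 336 and 348 CPM in N2. Replicates 1 and 2 of 2KR were the lowest, and replicate 3 of 2KR lay within the values of WT and N2. The log2 fold change of lgg-1 was -0.13 ± 0.07 for 2KR over N2 (adjusted p = 0.302), -0.03 ± 0.07 for WT over N2 (adjusted p = 0.875) and -0.10 ± 0.06 for 2KR over WT (adjusted p = 0.891).

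The conjugation gene with the smallest p in 2KR against WT was atg-3, the enzyme that transfers LGG proteins to lipid. It was at 48.1, 50.99 and 47.4 CPM in 2KR, 52.6, 49.1 and 54.3 CPM in WT, and 52.01 and 50.04 CPM in N2. The groups overlapped, and the log2 fold change was -0.09 ± 0.06 for 2KR over WT (adjusted p = 0.889, 95% interval -0.22 to 0.04). The activating enzyme atg-7 had -0.05 ± 0.06 for 2KR over WT, atg-5, the target of LGG-3, had -0.01 ± 0.07, and lgg-3, the worm ATG12 homolog, had -0.07 ± 0.09. The widest interval of the step was that of atg-10, the least abundant of the 31 genes by CPM (2.103 to 2.849 CPM), at -0.55 to 0.13 for 2KR over WT.

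The genes with the largest differences were in the cargo and late step. SQST-1, the worm counterpart of mammalian p62, binds ubiquitinated cargo and is itself degraded by autophagy. Its gene is sqst-1 (WBGene00011737, chromosome IV 12034282 to 12036891). It was at 29.2, 29.8 and 31.8 CPM in 2KR, 37.5, 35.1 and 41.2 CPM in WT, and 48.0 and 47.3 CPM in N2. No 2 of the 3 groups overlapped: 2KR was lowest, WT intermediate and N2 highest. Over all genes, 2KR lay below WT without overlap for 5.11%, WT below N2 for 19.2% and 2KR below N2 for 21.9%. The group means of sqst-1 were 30.3 ± 1.34 CPM in 2KR, 38.0 ± 3.09 CPM in WT (SD, n = 3 each) and 47.7 ± 0.476 CPM in N2 (SD, n = 2).

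The fall of sqst-1 in 2KR against N2 was a log2 fold change of -0.66 ± 0.08 (adjusted p = 0.00141), and the call held without each of the 5 libraries in turn. In WT against N2 it was -0.33 ± 0.08, with an adjusted p of 0.0499 just under the threshold. That call held without replicate 3 of WT (adjusted p = 0.0444) and was lost without any of the other 4 libraries, at up to 0.334. In 2KR against WT it was also -0.33, ± 0.07, with an adjusted p of 0.179 and a 95% interval of -0.49 to -0.17. With the replicate block the adjusted p of 2KR against WT was 0.0126, and with DESeq2 it was 0.0371. In the edgeR test without the block it was 0.417 with 2 groups alone and 0.233 with library totals alone. With the stricter filter on low counts it was 0.196. In 2KR against WT sqst-1 was called in 0 of the 6 fits with a library left out, at adjusted p of 0.0583 to 0.732. No exon of sqst-1 overlaps an exon of another gene in the annotation, while for 8 of the other autophagy genes exons do, by 3 to 134 bases.

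The order was otherwise for epg-2, whose product links P granule proteins to autophagosomes in embryos (WBGene00021468, chromosome I 2300086 to 2302813). It was at 21.1, 17.9 and 17.6 CPM in 2KR, 17.7, 16.5 and 14.1 CPM in WT, and 33.3 and 27.0 CPM in N2. Both N2 libraries lay above all libraries of the lines, and 2KR and WT overlapped narrowly, with 2KR the higher on average. The log2 fold change was -0.91 ± 0.13 for WT over N2 (adjusted p = 0.00407) and -0.68 ± 0.13 for 2KR over N2 (adjusted p = 0.0132). Both calls were lost without replicate 1 of N2, the higher of its libraries, at adjusted p of 0.0766 for WT over N2 and 0.181 for 2KR over N2, and held without each of the others. For 2KR over WT it was 0.23 ± 0.12 (adjusted p = 0.807, 95% interval -0.03 to 0.49).

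In the annotation, exons of epg-2 share 78 bases with exons of tpxl-1, a mitotic spindle gene on the opposite strand with 50969 counts over the 8 libraries, against 4266 for epg-2. Whether the authors counted by strand is not stated in the labels or files, although the library kit preserves strand. The level of tpxl-1 was 235.02 ± 21.9 CPM in 2KR, 240 ± 17.6 CPM in WT (SD, n = 3 each) and 250 ± 13.9 CPM in N2 (SD, n = 2), and none of its 3 comparisons passed.

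The other 2 genes of the step did not pass in any comparison. The tether gene epg-5 had a log2 fold change of 0.16 ± 0.08 for 2KR over WT (adjusted p = 0.774), and rab-7 had -0.09 ± 0.05 (adjusted p = 0.849).

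**Figure D4:**
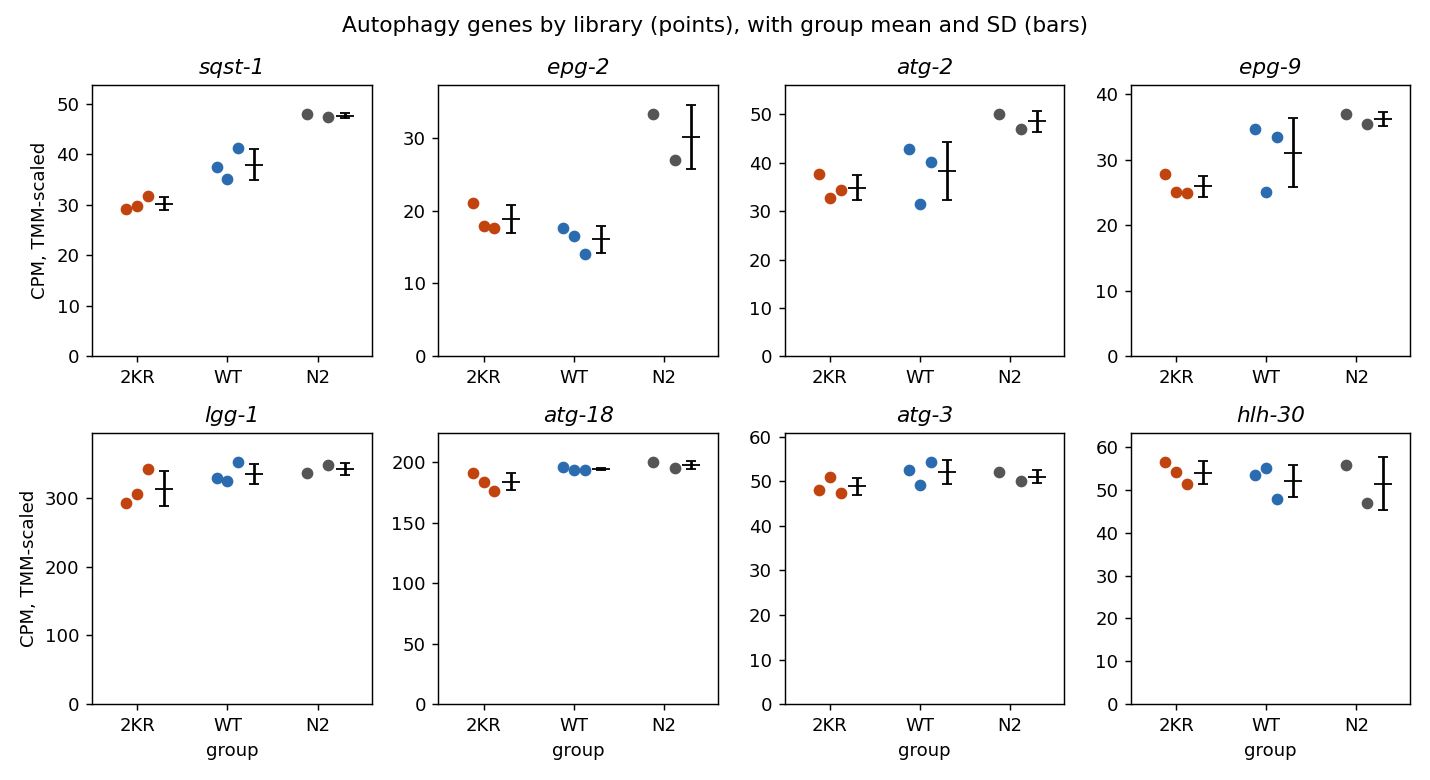
CPM (TMM-scaled, from 0) of sqst-1, epg-2, atg-2, epg-9, lgg-1, atg-18, atg-3 and hlh-30 in each 2KR, WT and N2 library (points), with the group mean and SD beside them. The points of sqst-1 form 3 separate groups, those of epg-2 and atg-2 separate the lines from N2, and those of hlh-30 overlap.

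The 2 regulators showed no called difference by edgeR or DESeq2, and 0 had an unadjusted p under 0.05 in any comparison. The gene hlh-30, the worm counterpart of mammalian TFEB, was at 56.4, 54.2 and 51.3 CPM in 2KR, 53.5, 54.9 and 47.8 CPM in WT, and 55.7 and 47.0 CPM in N2. The groups overlapped throughout, and the 95% interval of the log2 fold change was -0.12 to 0.23 for 2KR over WT. The kinase gene let-363, the worm TOR, which restrains autophagy, had a log2 fold change of -0.01 ± 0.08 for 2KR over WT, -0.06 ± 0.09 for WT over N2 and -0.06 ± 0.09 for 2KR over N2.

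Genes around the pathway were read from 5 lists beside the 31 genes. In 2KR against WT, 0 members of any of the 5 passed the edgeR test without a replicate block or DESeq2. With the block by replicate number, 1 vacuolar ATPase gene and 1 selective receptor gene passed, beside 1.54% of all genes. Without the block, an unadjusted p under 0.05 was reached by 4 vacuolar ATPase genes, 1 selective receptor gene and 0 genes of the other lists. Over all genes tested it was reached by 6.58%. The lists were TOR and AMPK signalling (18 genes tested of 19 names), fusion with lysosomes (15), the vacuolar ATPase that acidifies lysosomes (21), selective receptors and mitophagy (10 tested of 11) and lysosome membrane proteins (10 tested of 11 names). Of the names without a value, lst-8 and tmem-9 were not matched in the files by name, and sqst-3, a relative of sqst-1, did not pass the filter on low counts.

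In the list of TOR and AMPK signalling, 1 of 18 genes fell in each comparison with N2, and it was sinh-1, a TOR complex 2 component, both times. Over all genes tested, 4.0% fell in 2KR against N2 and 2.21% in WT against N2. It was at 17.2, 16.4 and 16.6 CPM in 2KR, 15.9, 18.6 and 15.5 CPM in WT, and 22.01 and 22.3 CPM in N2. Both N2 libraries lay above all 6 libraries of the lines. The log2 fold change was -0.40 ± 0.09 for 2KR over N2 (adjusted p = 0.0314, lost without any 1 of the 5 libraries) and -0.41 ± 0.10 for WT over N2 (adjusted p = 0.0407, lost without any of 4 of the 5). Both calls were lost when counts were scaled by library totals alone, at adjusted p of 0.0556 for 2KR over N2 and 0.0708 for WT over N2. In 2KR against WT the smallest p of this list was that of mxl-3, a transcription factor of the fasting response, at -0.27 ± 0.15 (adjusted p = 0.847).

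In the vacuolar ATPase list most differences were small and positive. In 2KR against N2 the log2 fold change was positive for 21 of 21 subunit genes, with a median of 0.09, against 0.01 over all genes tested. Of them 1 passed in the edgeR test, which called 3.76% of all genes higher. DESeq2 called 2, and the edgeR test with counts scaled by library totals alone called 3. Scaled so, 1070 of all 14361 genes were called in either direction, against 1114 in the main fit. The gene that passed in the edgeR test was vha-5, for the membrane subunit a, at 106, 111 and 125 CPM in 2KR, 97.2, 96.6 and 103 CPM in WT, and 90.8 and 91.5 CPM in N2. The groups of vha-5 overlapped in none of the 3 pairs, with 2KR highest, and its log2 fold change was 0.32 ± 0.07 for 2KR over N2 (adjusted p = 0.0271, called without 3 of the 5 libraries in turn). It was 0.20 ± 0.06 for 2KR over WT (adjusted p = 0.476, and 0.0343 with the replicate block). Over the list, 19 of 21 were positive in 2KR against WT (median 0.05, against -0.00 over all genes) and 18 of 21 in WT against N2 (median 0.06, against 0.01). In 2KR against WT all libraries of 2KR lay above those of WT for 7 of the 21 subunit genes, beside 5.12% of all genes.

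In the list of selective receptors, 1 of 10 genes, sepa-1, fell in WT against N2, where 2.21% of all genes fell. SEPA-1 binds P granule proteins and links them to autophagy in embryos, and EPG-2 acts with it. It was at 6.44, 6.94 and 6.25 CPM in 2KR, 4.39, 4.198 and 4.46 CPM in WT, and 8.22 and 8.83 CPM in N2. The groups did not overlap in any pair, and WT was lowest, with 2KR between WT and N2. The log2 fold change was -0.97 ± 0.12 for WT over N2 (adjusted p = 0.00168, held without each of the 5 libraries in turn) and -0.38 ± 0.12 for 2KR over N2 (adjusted p = 0.0725). For 2KR over WT it was 0.59 ± 0.11, with an adjusted p of 0.0771, and 0.0245 with the replicate block.

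In the lists of fusion with lysosomes and of lysosome membrane proteins, 0 genes were called in any of the 3 comparisons by edgeR without a replicate block or by DESeq2. At an unadjusted p under 0.05 the fusion list had 1 of 15 genes in WT against N2, where 19.1% of all genes had, and 3 of 15 in 2KR against N2, where 25.0% had. The lysosome membrane list had 1 of 10 in each. Of the fusion genes, vamp-7, a SNARE protein gene, lies 586 bases downstream of epg-9 on the same strand, and its log2 fold change was 0.28 ± 0.10 for 2KR over N2 (adjusted p = 0.114), opposite in sign to that of epg-9. Of the lysosome membrane genes, lmp-2, a LAMP relative, had 0.58 ± 0.21 for 2KR over N2 (adjusted p = 0.123).

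**Figure D5:**
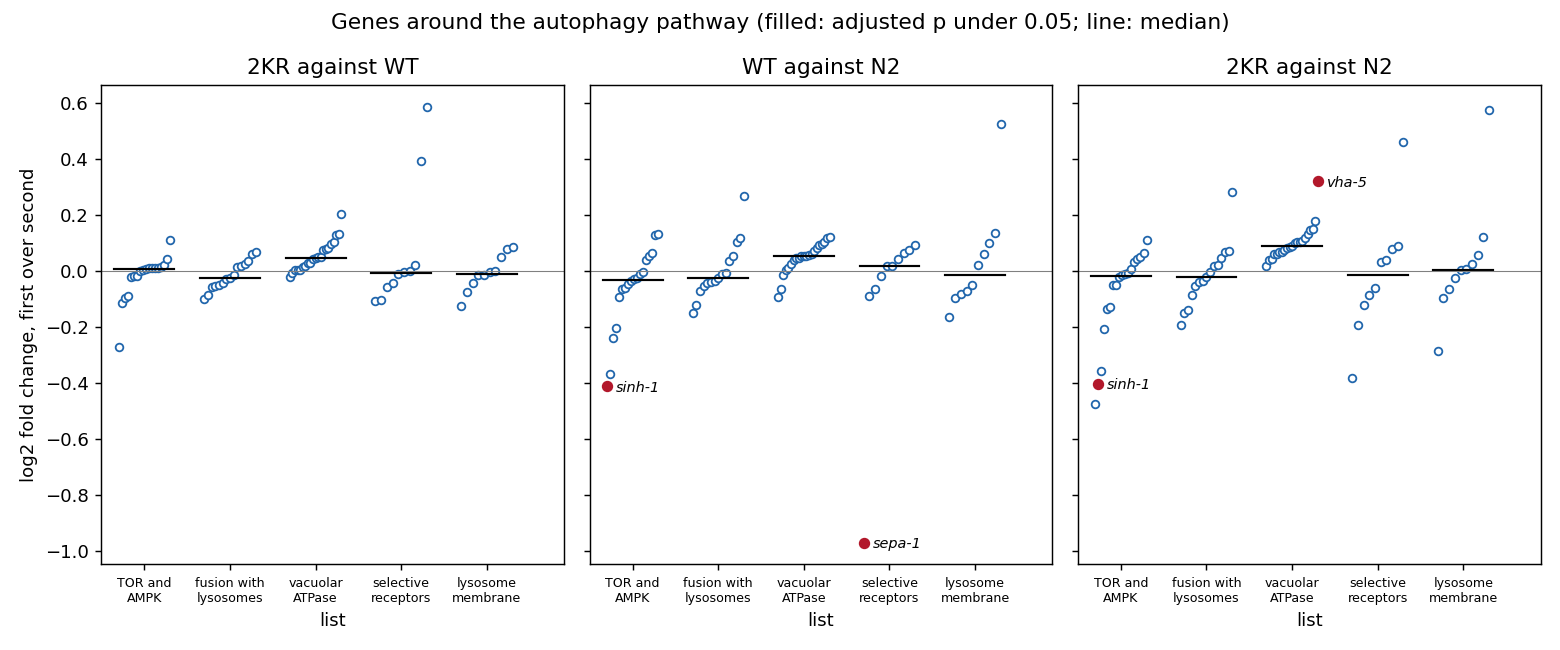
Log2 fold change of each gene of 5 lists around autophagy for 2KR over WT, WT over N2 and 2KR over N2, with the median of each list as a line and genes at an adjusted p under 0.05 filled. No gene is filled in 2KR against WT, sinh-1 and sepa-1 are filled in WT against N2, and sinh-1 and vha-5 in 2KR against N2.

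The worms were sampled whole, so that fewer cells of a type and less RNA per cell cannot be told apart in any of these values. Markers of intestine, sperm, oocytes and embryos, germline, muscle, neurons and hypodermis were above 0 in every library. The 7 markers listed for oocytes and embryos were oma-1, oma-2, puf-5, egg-1, egg-2, perm-2 and cbd-1. They summed to 5689 to 6580 CPM in 2KR, 6408 to 6831 CPM in WT and 6381 to 6680 CPM in N2. Of them 0 were called in any comparison without a replicate block. Whether these 7 follow the content of embryos, where EPG-2 and SEPA-1 are known to act, was not tested. The 6 germline markers summed to 2366 to 2575 CPM in 2KR, 2441 to 2678 CPM in WT and 2605 to 2703 CPM in N2, and 1 of them (syp-1) fell in 2KR against N2. The log2 fold changes of all 6 were negative in each line against N2, with medians of -0.06 in WT over N2 and -0.09 in 2KR over N2. The 7 sperm markers summed to 6.89 to 12.4 CPM in 2KR, 5.69 to 19.1 CPM in WT and 13.1 to 19.5 CPM in N2. The 6 of them that passed the filter on low counts had negative log2 fold changes in each line against N2. Their medians were -0.46 in WT over N2 and -0.91 in 2KR over N2, with 0 called in the edgeR test without a replicate block. The 7 intestine markers summed to 23084 to 24530 CPM in 2KR, 21136 to 22536 CPM in WT and 23675 to 24538 CPM in N2. Of them 2 (act-5 and ifb-2) rose in each line against N2. In WT against N2, 4 of the 7 log2 fold changes were positive and 3 negative, with asp-1 at -0.27 ± 0.10 (edgeR adjusted p = 0.177). In 2KR against N2, 6 were positive and 1 negative. The 6 neuron markers summed to 190 to 206 CPM in 2KR, 199 to 212 CPM in WT and 182 to 188 CPM in N2. Of them 0 were called without a replicate block, and 4 had an unadjusted p under 0.05 in 2KR against N2, beside 25.0% of all genes. The median log2 fold change of the 6 neuron markers was 0.43 in that comparison. The 5 muscle markers summed to 1351 to 2139 CPM in 2KR, 1507 to 1974 CPM in WT and 1326 to 1701 CPM in N2, and all 5 log2 fold changes were positive in each line against N2, with myo-3 called by DESeq2. The 5 hypodermis markers, which include rol-6, summed to 2383 to 2585 CPM in 2KR, 2098 to 2297 CPM in WT and 2127 to 2197 CPM in N2, and rol-6 was the 1 called. Over all genes tested, the edgeR test called 3.76% higher and 4.0% lower in 2KR against N2. It called 1.86% higher and 2.21% lower in WT against N2. The part of these markers in the differences of the autophagy genes was not tested.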

How the data were processed

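RNA-seq libraries of whole worms were compared, 3 of 2KR, 3 of WT and 2 of N2. Per the labels they were biological repeats, so p-values measure the spread between such repeats of 1 line. Per the submitters' processing notes, the authors used Trimmomatic 0.32, TopHat2 2.1.0 and DESeq2 1.14.1. The sources used here do not name the genome build, the annotation or the program that counted reads. The deposited values used were raw counts, 1 file per library. A second column, CPM per the file headers, was not used. The CPM in the text were computed from the deposited counts. The 4KR libraries were left out: over genes matched by name, their log2 CPM correlated with those of other libraries at 0.372 to 0.388, against 0.994 to 0.999 among the other libraries.

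Counts were analysed in R 4.3.3 with edgeR 4.0.16: filterByExpr, TMM scaling, 1 quasi-likelihood fit of 8 libraries with a term per group, and Benjamini-Hochberg adjustment over all genes tested. Standard errors are the log2 fold change over the square root of F, and intervals are 95%. DESeq2 1.42.0, other scalings and filters, a replicate block and leaving out each library were alternatives. The script was tested on simulated data. RPKM use the union of exons of WBcel235 (Ensembl 115), matched by gene identifier, as are all positions.

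Deviations from group means of same-numbered 2KR and WT libraries correlated at 0.394, 0.381 and 0.287, so same-numbered libraries deviated together. Those of differently numbered ones were negative, to which the centring on group means contributes. What the numbers mark is not stated in the labels. The main fit, its standard errors and its intervals do not use this pairing. With the replicate block, 221 of all genes were called in 2KR against WT, among them sqst-1, against 35 in the main fit. The members and lists were chosen with earlier results of these data known. Values in every library are given for members called in any comparison, with or without the block, and for the member of each step with the smallest p in 2KR against WT. For each list around the pathway they are given for called genes, with the smallest p named where none was called. The genes vamp-7 and lmp-2 were the smallest p of their lists against N2. In 2KR against WT those of the same lists were rab-5 (-0.10 ± 0.05, edgeR adjusted p = 0.81) and lmp-1 (0.09 ± 0.05, edgeR adjusted p = 0.878). For the vacuolar ATPase list in WT against N2 it was vha-11 (0.10 ± 0.05, edgeR adjusted p = 0.34). The sharing of exons was computed from the annotation after the values were seen.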

Additional observations from a re-analysis of the deposited data

How the results depend on the processing

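In 2KR against WT, 1 of the 31 autophagy genes was called by DESeq2, under the replicate block by title number, by the repeat names of the deposited files and by title number with these 2 groups alone, against 0 otherwise and 0 without any 1 library. Over all genes, the count of 35 became 99 without a filter, 95 with DESeq2, 22 with 2 groups alone, 221 and 319 under the blocks, 286 under the block with 2 groups alone, and 7 to 124 with a library left out. In WT against N2, 1 autophagy gene was called with library totals alone and with 2 groups alone, 0 to 2 with a library left out, and 3 under each block, with atg-2 added (adjusted p 0.0142, 0.0326 and 0.019). The 584 of all genes became 911 without a filter, 1794, 1455 and 1236 under these blocks in the same order, and 101 to 464 with a library left out. In 2KR against N2, the block by title number called 5 autophagy genes (with lgg-1, adjusted p 0.0173), the stricter filter 3 (without epg-9), and 1 to 3 were called with a library left out. The 1114 of all genes became 2695, 2457 and 2780 under the blocks and 162 to 986 with a library left out. Of the lists against N2, the block by title number added lmp-2 (adjusted p 0.0418), vha-11 (0.0483) and vha-13 (0.0129), all in 2KR. Of the markers it added 4 neuron, 2 muscle and 1 hypodermis marker higher and perm-2 and 2 sperm markers lower in 2KR, and egg-2 and 2 muscle markers higher and him-3 lower in WT. With library totals alone the median log2 fold change of the 31 genes was 0.0035 in WT against N2 and -0.034 in 2KR against N2. Scaled so, the signs of lgg-1 (0.0035) and atg-18 (0.0078) in WT against N2 turned. That of atg-3 turned under the block with 2 groups alone (-0.0052). Leaving out libraries gave ranges across 0 for hlh-30 in 2KR against WT (-0.00295 to 0.10), in WT against N2 (-0.10 to 0.15) and in 2KR against N2 (-0.0434 to 0.21), and in WT against N2 for atg-3 (-0.0049 to 0.068) and lgg-1 (-0.065 to 0.000344). None of these values that turned was called. The cause of these changes was not tested. For the numbers that link N2 to the lines, correlations of deviations were 0.207 and 0.0749 with WT and 0.2 and 0.121 with 2KR, from 2 pairs each. Of 344 single-gene values under alternatives, 307 kept direction and side of the threshold. With 2 N2 libraries, leaving out 1 leaves a single N2 library, assumed to vary like the other groups.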
